A study of Mus musculus with 32 samples.

Results

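The genes described here are the ephrins, the Eph receptors, the semaphorins and the semaphorin receptors (plexins and neuropilins) of the mouse, followed in embryonic stem cells (ESCs) whose β-catenin was removed and then supplied from a transgene. Every protein-coding gene whose symbol is that of an Epha or Ephb receptor, an Efna or Efnb ephrin, a Sema gene, a Plxna to Plxnd gene, Nrp1 or Nrp2 was taken, which gave 53 of the 31053 genes counted. They comprised 14 Eph receptors, 8 ephrins, 20 semaphorins, and 11 plexins and neuropilins. A gene was tested when it had at least 1 CPM (reads scaled to the library's total) in at least 4 libraries, and 48 of the 53 genes were among the 15280 that did so. Epha1, Epha3, Epha6, Plxnb3 and Sema3g did not.

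The cells were the mouse ESC line C1. Its parent is β-catenin-/- by removal of the whole coding sequence, and it carries EF1a-rtTA and a TRE3G promoter that drives the transgene, in which a destabilising domain and mCherry are fused to β-catenin S33Y, a form that escapes degradation. Doxycycline (dox) starts transcription of the fusion gene, trimethoprim (TMP) stabilises the protein, and all 8 groups share this line, so its background was not varied. RNA was sequenced from 4 libraries per group, 32 in all. By the study's methods, cells kept in 2i/L were treated for 48 h with 10 μM TMP alone (C1) or with 10 μM TMP and 100 ng/mL dox, and the induced cells were sorted on mCherry into a middle (C1M) and a high (C1H) fraction, which the labels call moderate and high, while C1 was sorted for living cells alone. These are the day 0 groups. Sorted cells were then differentiated for 4 days in NDiff227 medium without a lineage-directing factor. C1T cells came from C1 and had TMP alone, C1MV and C1HV cells came from C1M and C1H and had neither inducer (DMSO), and C1MDT and C1HDT cells had dox and TMP throughout. Cells that had dox before the sort are called induced below, at day 4 too. At day 4 the word takes in C1MV and C1HV, which had no inducer while they differentiated. C1 and C1T were the groups that never received dox, so an effect of dox and one of the transgene cannot be told apart in any comparison with them. C1T had TMP during differentiation and C1MV and C1HV did not, so TMP differs as well where these are compared.

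Ephrins are ligands held on the cell surface, by a lipid anchor in class A and by a transmembrane segment in class B. They bind Eph receptor tyrosine kinases on neighbouring cells and signal into both cells at once, mostly to part them. Semaphorins are a second ligand family, secreted in class 3 and membrane bound in classes 4 to 7. Most act through plexins, which inactivate small GTPases of the Ras and Rap families, and class 3 members commonly need a neuropilin as co-receptor. Both systems are known from axon guidance and also from the sorting of cells into layers and boundaries in the early embryo.

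The libraries held 1366951 to 3648787 reads assigned to genes (median 2402468), so that 3 reads, the floor used here, stood for 0.822 to 2.19 CPM. Counts near that floor are imprecise, and floors cover counting error only. CPM values were scaled with trimmed-mean (TMM) factors. Ctnnb1 read 7.81 ± 2.62 CPM (mean ± SD, n = 4, as for all such values below) in C1, 12.2 ± 3.84 in C1M and 41.1 ± 5.70 in C1H. At day 4 it read 9.74 ± 2.47 CPM in C1T, 9.16 ± 2.57 and 6.21 ± 1.84 where the inducers were withdrawn (C1MV, C1HV), and 29.2 ± 4.29 and 30.8 ± 3.73 where they were kept (C1MDT, C1HDT). The 3′ reads can fall in parts of the transcript that the deletion left, so the values in C1 and C1T do not check the knockout. The share of unique reads outside genes was 19.5 to 23.1% at day 0 and 10.1 to 15.7% at day 4, and its part in the day 0 to day 4 differences was not tested.

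Cell type marker lists were summed in each library. Naive pluripotency genes (12 of 12 passed the filter) summed to 8590 to 9323 CPM in C1, 7421 to 8066 in C1M and C1H, 1466 to 1846 in C1T, 2798 to 3493 in C1MV and C1HV, and 1583 to 1896 in C1MDT and C1HDT. Epiblast-like genes (8 of 8) summed to 157 to 203 CPM in C1, 216 to 238 in C1M, 178 to 212 in C1H, 2254 to 2673 in C1T, 945 to 1133 in C1MV and C1HV, and 1468 to 1619 in C1MDT and C1HDT. Endoderm genes (9 of 10) summed to 168 to 222 CPM in C1, 112 to 171 in C1M and C1H, 183 to 344 in C1T, 424 to 552 in C1MV and C1HV, and 641 to 778 in C1MDT and C1HDT, and Afp was at 0 in C1 and C1MV. Neural ectoderm genes (9 of 10) summed to 47.8 to 61.1 CPM at day 0, 200 to 238.8 in C1T, 228 to 281 in C1MV and C1HV, and 262 to 313 in C1MDT and C1HDT. Trophectoderm genes (5 of 6) summed to 197 to 253 CPM at day 0, 58.1 to 79.6 in C1T, 111 to 152 in C1MV and C1HV, and 80.6 to 100 in C1MDT and C1HDT. Mesoderm genes (8 of 9) summed to 63.9 to 67.5 CPM in C1, 48.9 to 60.2 in C1M, 54.9 to 65.7 in C1H, 22.2 to 26.2 in C1T and 30.6 to 51.9 in the induced day 4 groups, with T at 0 in C1 and C1MV. Endothelial genes (3 of 5) summed to 48.1 to 70.3 CPM in C1, 59.6 to 74.7 in C1M, 72.2 to 81.5 in C1H, 36.5 to 47.03 in C1T, 36.96 to 66.9 in C1MV and C1HV, and 17.4 to 27.1 in C1MDT and C1HDT. Fibroblast genes (3 of 5) summed to 6.71 to 8.61 CPM in C1, 12.6 to 16.6 in C1M and C1H, and 2.40 to 13.8 at day 4, with Postn at 0 in 7 of the 8 groups.

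The 250 bases before the transcription start (RefSeq, GRCm38.p6) are shown for 6 of the 7 members called in the same direction in all 4 day 4 comparisons with C1T below (the other is Sema6a), to set the promoters of genes that were high in C1T beside those that were low there. Capitals mark a match on either strand to the letters CTTTG followed by AA, AT, TA or TT, which are forms of the motif bound by TCF and LEF, the partners of β-catenin on DNA. The forms differ only in their last letters, so they do not overlap as the same match.
Efna3 (chr3:89322940-89323189, minus strand): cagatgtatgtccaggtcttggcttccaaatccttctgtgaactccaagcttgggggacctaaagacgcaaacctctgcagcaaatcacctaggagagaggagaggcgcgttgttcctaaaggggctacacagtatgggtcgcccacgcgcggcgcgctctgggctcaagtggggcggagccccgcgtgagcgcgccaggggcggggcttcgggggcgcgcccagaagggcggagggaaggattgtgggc
Efnb1 (chrX:99135811-99136060, plus strand): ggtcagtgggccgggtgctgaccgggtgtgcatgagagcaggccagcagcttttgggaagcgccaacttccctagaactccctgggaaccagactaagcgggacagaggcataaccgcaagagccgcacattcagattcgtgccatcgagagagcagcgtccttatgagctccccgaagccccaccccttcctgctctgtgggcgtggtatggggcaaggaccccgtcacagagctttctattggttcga
Nrp2 (chr1:62703067-62703316, plus strand): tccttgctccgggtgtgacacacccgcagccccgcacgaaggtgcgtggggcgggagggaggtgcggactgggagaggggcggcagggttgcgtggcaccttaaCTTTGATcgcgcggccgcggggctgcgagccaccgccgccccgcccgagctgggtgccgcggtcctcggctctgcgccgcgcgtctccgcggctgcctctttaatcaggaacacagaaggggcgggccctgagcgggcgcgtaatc
Plxnb2 (chr15:89180789-89181038, minus strand): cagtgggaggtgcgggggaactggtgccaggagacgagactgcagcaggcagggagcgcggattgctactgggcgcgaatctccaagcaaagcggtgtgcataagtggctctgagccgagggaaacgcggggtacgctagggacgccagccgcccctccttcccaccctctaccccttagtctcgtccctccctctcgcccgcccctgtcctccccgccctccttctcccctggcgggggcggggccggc
Sema3e (chr5:14025026-14025275, plus strand): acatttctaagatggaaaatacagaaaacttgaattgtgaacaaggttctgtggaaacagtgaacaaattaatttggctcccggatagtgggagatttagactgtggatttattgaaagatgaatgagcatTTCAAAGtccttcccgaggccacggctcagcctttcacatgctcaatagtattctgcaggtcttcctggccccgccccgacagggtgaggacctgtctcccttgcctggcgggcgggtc
Sema5b (chr16:35541112-35541361, plus strand): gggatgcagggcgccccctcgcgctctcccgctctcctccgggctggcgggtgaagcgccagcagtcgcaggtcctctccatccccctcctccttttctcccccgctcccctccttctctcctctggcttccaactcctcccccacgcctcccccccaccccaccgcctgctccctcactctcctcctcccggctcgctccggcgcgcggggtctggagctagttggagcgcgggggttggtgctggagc
Efna3, Efnb1, Nrp2 and Plxnb2 were lower in C1T than in the induced day 4 groups, and Sema3e and Sema5b were higher there. A match was found in the windows of Nrp2 (CTTTGAT) and Sema3e (TTCAAAG, the other strand of CTTTGAA), 1 from each side. Of all 32851 promoter windows in the table, 4874 (14.8%) held one, and of the 47 members with a window 5 did, the others being Efna4, Epha2 and Sema3d. The first share counts every window listed, while each member has 1, that nearest its GENCODE start, so they are of unlike units. For Sema3a and Sema4d the nearest lay 271370 and 37064 bases away. The Sema3e window had 7 CpG dinucleotides and 48% G and C, the other 5 windows had 13 to 32 CpG and 60 to 72.4%, and the medians of all windows were 6 and 52.4%. A match describes letters in this window and is not a bound site. The starts are those of RefSeq. By GENCODE the Sema5b gene begins at 35541145, so most of its window lies inside the gene, as do short parts of the Efna3 and Nrp2 windows.

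In the comparisons that follow, differences are log2 fold changes from edgeR's quasi-likelihood test over all 15280 genes with Benjamini-Hochberg adjusted p-values, and a gene was called at an adjusted p under 0.05. The labels name the 4 libraries of a group biological replicates without saying how the cultures were kept apart, and p-values measure the spread between these libraries. In bulk RNA, fewer cells that express a gene and less of its RNA per cell cannot be told apart. Of the 48 tested members, 38 were called in at least 1 of the 16 comparisons of 2 groups. The 10 that were not were Efna1, Efna5, Efnb3, Plxna4, Plxnc1, Plxnd1, Sema3a, Sema3c, Sema6b and Sema7a, each at a mean of under 6 CPM in every group. The share of all genes called in at least 1 of these comparisons was not counted. Single comparisons called up to 55.7% of all genes, so the count of 38 is not read as a result about the members. The map of fold changes over all members sets these comparisons side by side.

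**Figure D1:**
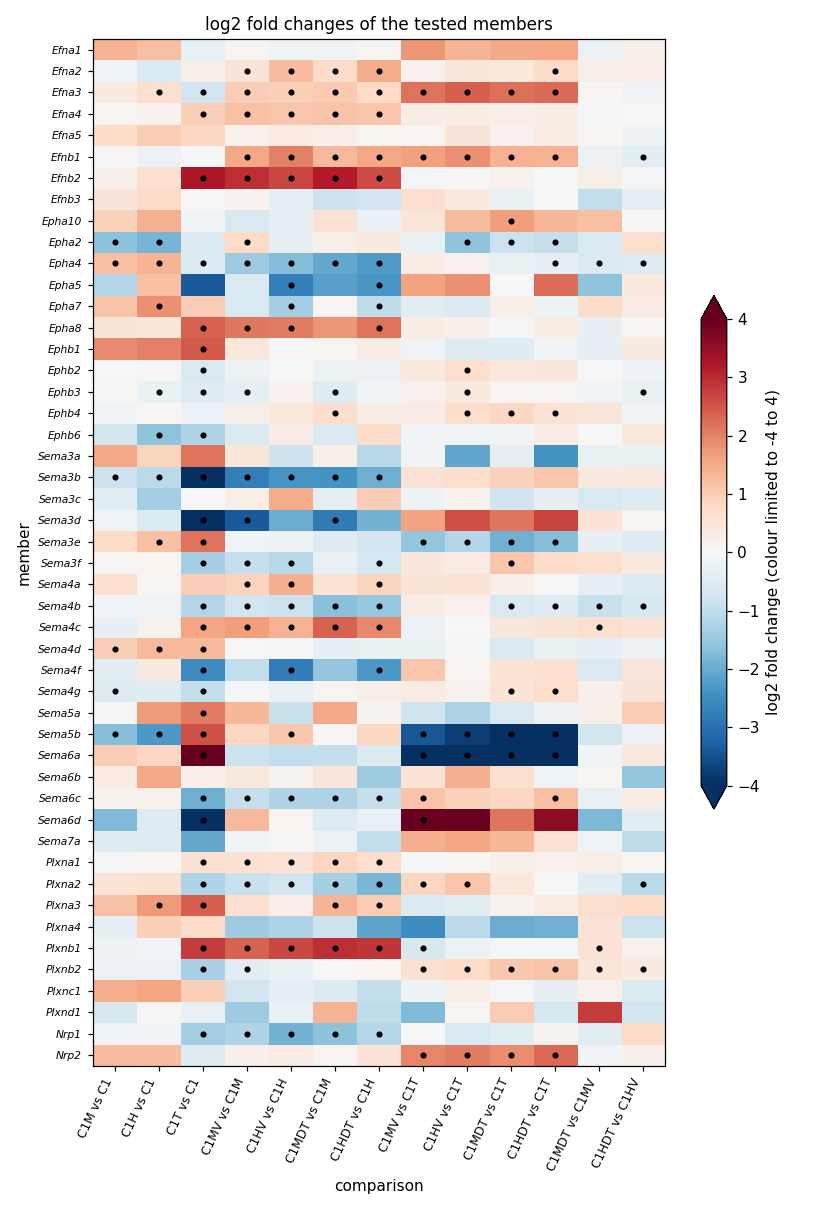
Fold changes of the 48 tested members (rows, by family) in 13 comparisons (columns), as log2 fold change by colour from -4 to 4, where larger values take the end colour and a black point marks an adjusted p under 0.05. Efnb2 and Plxnb1 are red in all 5 comparisons of day 4 with day 0, and Sema6a and Sema5b take the end colour or lie near it where day 4 groups are set against C1T.

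The day 0 comparisons ask what the fusion protein did to pluripotent cells. In C1M 6 members were called against C1, 2 higher and 4 lower, where 26.3% of all tested genes were called. In C1H 11 members were called, 6 higher and 5 lower, where 25.9% of all genes were. The member counts lie below the 26.3% and 25.9% of the background (12.5% and 22.9% of the tested members), and both comparisons share the C1 libraries. The median log2 fold change of the members was 0.04 and 0.17, against 0.06 and 0.04 over all genes. With library size alone as the scale, 64.5% of all calls in C1M and 66.4% in C1H were higher, against 54.4% and 53.4% here, and 3 and 8 members were then called higher. Ctnnb1 itself was called in C1H (2.37 ± 0.21 SE, adjusted p = 6.33e-20) and not in C1M (0.61 ± 0.25 SE, adjusted p = 0.0551). Marker lists moved beside the members. The naive pluripotency sums of C1M and C1H lay below those of C1, and the fibroblast sums above, without overlap. In C1M the epiblast-like sums also lay above C1 and the mesoderm and endoderm sums below it, and in C1H the endothelial sums lay above C1, again without overlap. Of 12 naive pluripotency genes 3 were called higher and 6 lower in C1M, and 1 higher and 4 lower in C1H, and of 8 epiblast-like genes 3 were called higher and 1 lower in C1M, and 2 higher and 1 lower in C1H. Their part in the day 0 differences of the members was not tested.

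Epha4, a receptor of broad choice that binds ephrins of both classes, rose in induced cells. Its level in the 4 libraries was 53.7, 39.6, 51.9 and 64.6 CPM in C1, 117, 121, 119 and 132 in C1M and 126, 139, 138 and 142 in C1H. All 8 induced libraries lay above every C1 library, and the difference was 1.21 ± 0.11 (SE, adjusted p = 5.9e-18) for C1M and 1.37 ± 0.11 (SE, adjusted p = 8.11e-22) for C1H.

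Epha2, a class A receptor of epithelial cells, moved the other way. It read 27.3, 15.3, 21.3 and 12.4 CPM in C1, 4.67, 6.38, 6.19 and 7.01 in C1M and 6.81, 4.18, 5.13 and 5.04 in C1H, again without overlap. The difference was -1.66 ± 0.26 (SE, adjusted p = 1.06e-07) for C1M and -1.85 ± 0.27 (SE, adjusted p = 5.9e-09) for C1H. Among the Eph receptors, Epha7 was called higher in C1H, at 9.53, 5.58, 4.40 and 6.72 CPM against 2.10, 0.566, 1.04 and 3.35 in C1 (1.82 ± 0.45 SE, adjusted p = 0.000721), and in C1M it was 3.82, 4.25, 3.58 and 4.95 CPM (1.15 ± 0.48 SE, adjusted p = 0.0633). Ephb6, a receptor that lacks kinase activity, fell in C1H to 3.75, 2.79, 2.56 and 2.52 CPM from 11.7, 7.36, 10.4 and 6.70 (-1.62 ± 0.35 SE, adjusted p = 0.00012). Its C1M libraries overlapped both groups, at 3.39, 5.32, 7.82 and 4.95 CPM (-0.73 ± 0.32 SE, adjusted p = 0.0768). The Ephb3 receptor, at 98.2 ± 10.6 CPM in C1 and 81.4 ± 7.90 in C1H, was called lower in C1H with libraries that overlapped (-0.27 ± 0.10 SE, adjusted p = 0.0387).

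Semaphorins moved in both directions at day 0. Sema3b, a secreted ligand, read 33.1, 38.5, 29.1 and 33.98 CPM in C1, 12.7, 24.8, 15.96 and 22.7 in C1M and 20.1, 12.5, 13.9 and 16.4 in C1H, and no induced library reached the C1 range. The difference was -0.81 ± 0.25 (SE, adjusted p = 0.0107) for C1M, a call that DESeq2 did not make, and -1.09 ± 0.25 (SE, adjusted p = 0.000776) for C1H. Sema5b, a transmembrane semaphorin with thrombospondin repeats, fell from 10.1, 15.3, 5.71 and 7.66 CPM in C1 to 2.97, 2.13, 3.26 and 3.30 in C1M (-1.70 ± 0.34 SE, adjusted p = 3.42e-05) and 3.06, 1.39, 0 and 3.36 in C1H (-2.28 ± 0.37 SE, adjusted p = 2.19e-07). Sema4d, the ligand of Plxnb1, rose from 3.78, 6.22, 3.63 and 3.35 CPM to 6.36, 8.86, 10.1 and 7.84 in C1M (1.00 ± 0.33 SE, adjusted p = 0.0143) and 10.2, 10.8, 10.6 and 9.24 in C1H (1.28 ± 0.32 SE, adjusted p = 0.000767). The C1M call of Sema4d was lost without C1 replicate 1, C1 replicate 4 or C1M replicate 3, at 0.92, 0.90 and 0.87. Sema3e, at 3.25 ± 1.34 CPM in C1 and 7.48 ± 1.71 in C1H, was called higher in C1H (1.21 ± 0.37 SE, adjusted p = 0.00903), and Sema4g, at 21.1 ± 2.02 CPM in C1 and 14.6 ± 1.23 in C1M, lower in C1M (-0.51 ± 0.20 SE, adjusted p = 0.0404). The Sema3e call was lost without C1 replicate 1. Those of Sema4g in C1M and Ephb3 in C1H were lost with library size alone, with no filter and without any 1 of 5 libraries.

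Of the ephrins, only Efna3 was called at day 0 in these fits, in C1H, at 15.5 ± 1.52 CPM against 9.57 ± 2.66 in C1 (0.67 ± 0.22 SE, adjusted p = 0.0146), and the call was lost without C1 replicate 3 or C1H replicate 1. Of the plexins and neuropilins only Plxna3 was called, also in C1H. Its libraries read 1.26, 0.566, 1.04 and 0.957 CPM in C1 and 3.06, 3.48, 3.66 and 2.94 in C1H (1.70 ± 0.55 SE, adjusted p = 0.0124), close to the floor in C1, and 1.27, 3.90, 1.30 and 2.48 in C1M. No member of the ephrins, plexins or neuropilins was called in C1M.

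**Figure D2:**
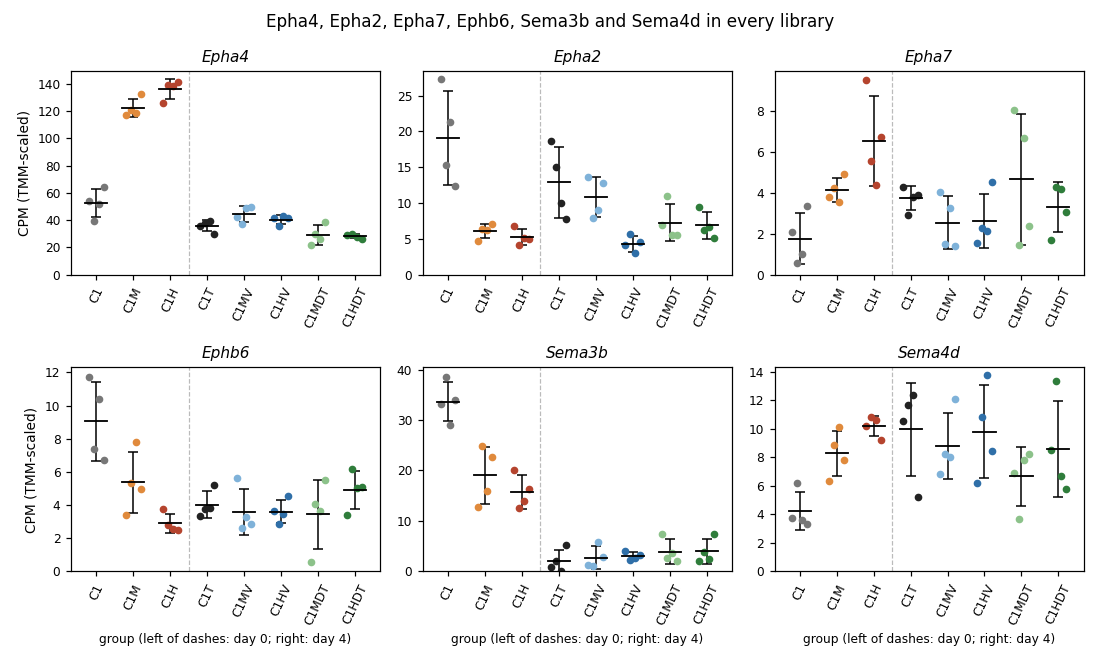
CPM (linear axis, TMM-scaled) of Epha4, Epha2, Epha7, Ephb6, Sema3b and Sema4d in the 8 groups, with 1 point per library, a bar at the mean and whiskers of 1 SD (n = 4). Epha4 lies at 117 to 142 CPM in the 8 induced day 0 libraries and at 39.6 to 64.6 in C1, and Sema3b lies at or below 7.49 CPM in all 20 day 4 libraries.

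The middle and high fractions ask whether the amount of fusion protein mattered. Ctnnb1 itself differed between the fractions, C1H exceeding C1M by 1.76 ± 0.18 (SE, adjusted p = 1.55e-13). Between C1H and C1M 0 members were called by edgeR, 4 had an unadjusted p under 0.05 and DESeq2 called 1 (Ephb3, with -0.31 ± 0.10 and adjusted p = 0.0762 in edgeR), where 1.77% of all genes were called. Over the 22 members whose library values are given here, the difference ran from -0.89 ± 0.37 (Ephb6) to 0.66 ± 0.36 (Epha7), and 18 of them lay within 0.5 of 0.

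The same fractions were compared again at day 4, when Ctnnb1 was not called between them. Its difference was -0.47 ± 0.29 (SE, adjusted p = 0.75) between C1HV and C1MV and 0.05 ± 0.16 (SE, adjusted p = 0.992) between C1HDT and C1MDT. A difference that was not called does not show equal amounts, and Ctnnb1 reads need not come from the transgene alone. By mCherry fluorescence, the study reported that the exogenous protein rose with dose in C1MDT and C1HDT. These pairs therefore compare the earlier sort, and the amount of fusion protein at day 4 is not settled here. C1HV against C1MV gave 0 members by edgeR and by DESeq2, with 2 at an unadjusted p under 0.05, and 1 gene of all tested was called (0.00654%). C1HDT against C1MDT gave 0 members by both tools and 0 at an unadjusted p under 0.05, where 0% of all genes were called. The widest value among the 22 members was -1.31 ± 0.33 for Epha2 in C1HV against C1MV, whose libraries did not overlap (4.13, 5.69, 3.01 and 4.55 against 13.7, 7.87, 9.08 and 12.8 CPM, adjusted p = 0.183). Between C1HDT and C1MDT they ran from -0.48 ± 0.40 (Epha7) to 0.56 ± 0.48 (Nrp1).

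The comparisons of day 4 with day 0 ask what differentiation did to the same genes. In C1T against C1 29 members were called, 13 higher and 16 lower, where 49.2% of all genes were called, so 60.4% of the tested members stand beside 49.2% of all genes. Against C1M, 21 members were called in C1MV (11 higher, 10 lower, 45.8% of all genes) and 18 in C1MDT (10 higher, 8 lower, 52.4%). Against C1H, 21 were called in C1HV (11 higher, 10 lower, 47%) and 21 in C1HDT (11 higher, 10 lower, 55.7%). The member share was 43.8% in C1MV, C1HV and C1HDT and 37.5% in C1MDT, close to the background in C1MV and C1HV. C1MV and C1MDT share the C1M libraries in these comparisons, and C1HV and C1HDT the C1H libraries. The median log2 fold change of the tested members was -0.11 in C1T against C1, 0.06 in both fractions that came from C1M, -0.10 in C1HV and -0.18 in C1HDT, against 0.01 in C1T and -0.04 to -0.06 in the others over all genes. By family, of 8 ephrins 5 were called higher and 0 lower in each of the 4 induced comparisons, where 22% (C1MV), 24.5% (C1MDT), 22% (C1HV) and 26.3% (C1HDT) of all genes were called higher, and in C1T 2 were called higher and 1 lower, beside 24.4% of all genes called higher. The other families went both ways. Of 19 semaphorins tested, 6 were called higher and 8 lower in C1T, and in the induced groups 1 to 3 higher and 4 or 5 lower. Of 10 plexins and neuropilins, 3 were called higher and 3 lower in C1T, and 2 or 3 each way in the induced groups. Of 11 Eph receptors, 2 were called higher and 4 lower in C1T, and 1 or 2 higher and 2 or 3 lower in the induced groups. The naive pluripotency, epiblast-like, neural ectoderm and trophectoderm sums also separated all day 0 from all day 4 libraries. Without overlap with their own day 0 group, endoderm sums were higher in all 4 induced groups, mesoderm sums were lower in C1T, C1MV, C1HV and C1HDT, endothelial sums in C1T, C1MDT, C1HV and C1HDT, and fibroblast sums in C1MV, C1MDT and C1HDT. The part of the marker lists in these changes was not tested.

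Efnb2, the transmembrane ephrin that Ephb4 binds, rose in every comparison of day 4 with day 0. At day 0 it lay at 1.91 to 10.5 CPM (median 6.69) over 12 libraries. It read 54.2, 45.4, 49.6 and 62.6 CPM in C1T and 41.1 to 67.8 CPM (median 52.2) over the 16 induced libraries of day 4, so that every day 4 library lay above every day 0 library. The change was 3.24 ± 0.21 (SE, adjusted p = 5.92e-31) in C1T, 2.97 (C1MV), 3.19 (C1MDT), 2.68 (C1HV) and 2.61 (C1HDT), with SE of at most 0.21 and all of them called. Against C1T the induced groups differed by -0.06 to 0.16, none called. Same-strand transcripts E230020D15Rik, Gm45074 and Gm45073 overlap this gene, and reads where they lie together may have been left out as ambiguous.

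Efna4, a lipid-anchored ephrin, rose from 10.2 ± 1.96 CPM in C1 to 19.99 ± 4.19 in C1T (0.94 ± 0.22 SE, adjusted p = 0.00018), and was called higher in the 4 induced groups at 1.10 to 1.17. Efna2 was called in the induced groups, at 0.52 (C1MV) to 1.48 (C1HDT), with 15.6 ± 2.81 CPM in C1 and 17.8 ± 3.63 in C1T, and its call in C1MV was lost without C1MV replicate 4. Efna3 and Efnb1 are described with the comparisons against C1T.

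Plxnb1, the Sema4d receptor, rose in the same 5 comparisons. It lay at 1.06 to 5.36 CPM (median 3.80) at day 0, at 27.3, 21.6, 32.4 and 24.8 CPM in C1T, and at 7.84 to 34.01 CPM (median 21.6) in the induced libraries. The change was 2.79 ± 0.28 (SE, adjusted p = 8.49e-16) in C1T, 2.37 (C1MV), 2.94 (C1MDT), 2.67 (C1HV) and 2.85 (C1HDT), all called, and no day 4 library reached down to the day 0 range. Sema4c, a ligand of Plxnb2, rose as well. It read 2.48 to 9.05 CPM (median 5.16) at day 0, 24.9, 15.4, 13.8 and 11.1 CPM in C1T and 7.96 to 28.9 CPM (median 19.7) in the induced day 4 libraries. The changes were 1.57 ± 0.31 (SE, adjusted p = 9.44e-06) in C1T, 1.67, 2.35, 1.40 and 1.93 in C1MV, C1MDT, C1HV and C1HDT, all called. Plxna1 was called higher in all 5 comparisons by smaller steps, 0.59 to 0.87, and C1T read 43.5 ± 5.41 CPM against 28.6 ± 5.51 in C1.

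Sema3b, lower in induced cells than in C1 at day 0, was lower in every day 4 group than in its own day 0 group. From 12.5 to 38.5 CPM (median 21.4) at day 0 it went to 0.959, 2.08, 0 and 5.22 CPM in C1T and 1.12 to 7.49 CPM (median 2.72) in the induced libraries, a range that holds the floor. The change was -4.14 ± 0.39 (SE, adjusted p = 3.58e-13) in C1T and -2.75, -2.39, -2.35 and -1.95 in C1MV, C1MDT, C1HV and C1HDT, all called. Sema4b, a transmembrane class 4 ligand, lay at 50.3 to 66.2 CPM (median 58.7) at day 0. It read 33.1, 34.1, 19.5 and 22.2 CPM in C1T. Cells without inducers had 29.8, 43.1, 27.97 and 35.7 CPM in C1MV and 35.1, 31.3, 33.1 and 24.1 in C1HV, and cells with them 23.6, 18.4, 13.4 and 19.9 in C1MDT and 24.8, 18.1, 16.3 and 19.4 in C1HDT. All 20 day 4 libraries lay below the 12 of day 0, by -1.17 ± 0.15 (SE, adjusted p = 9.87e-12) in C1T, -0.77 (C1MV), -1.67 (C1MDT), -0.87 (C1HV) and -1.51 (C1HDT), each called.

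Sema6c, a class 6 semaphorin, fell from 13.4 to 20.2 CPM (median 15.6) at day 0 to 0, 5.41, 7.15 and 1.96 CPM in C1T (-1.95 ± 0.36 SE, adjusted p = 3.61e-06) and 2.85 to 14.1 CPM (median 7.72) in the induced libraries, with changes of -1.24 to -0.93 there, each called. One C1MV library, at 14.1 CPM, lay within the day 0 range. Sema3f, the class 3 ligand that prefers Nrp2, read 10.3 ± 2.11 CPM in C1 and 4.32, 2.91, 5.24 and 3.91 in C1T (-1.34 ± 0.34 SE, adjusted p = 0.000376). In the induced groups it was called lower in C1MV, C1HV and C1HDT (-0.92, -1.11 and -0.70), and in C1MDT it changed by -0.28 ± 0.27 (SE, adjusted p = 0.384). The call in C1MV was lost without C1MV replicate 2, and that in C1HDT without C1H replicate 1 or C1HDT replicate 2.

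Nrp1, the co-receptor of Sema3a, lay at 3.71 to 10.2 CPM (median 5.67) at day 0. It read 3.36, 2.91, 0.953 and 2.61 CPM in C1T (-1.38 ± 0.43 SE, adjusted p = 0.00488) and 0.340 to 5.02 CPM (median 2.21) in the induced day 4 libraries, with called changes of -1.90 to -1.14. Values of 1 to 3 CPM are a few reads each, and without C1M replicate 1, at 10.2 CPM, the change in C1MV was -0.83 and was not called. The call in C1HDT was lost without C1HDT replicate 4. Plxna2, a receptor of class 6 semaphorins, read 9.65, 8.49, 10.4 and 9.57 CPM in C1 and 2.88, 3.33, 7.15 and 2.61 in C1T (-1.22 ± 0.32 SE, adjusted p = 0.000765). In the induced groups it was called lower by -0.90 (C1MV), -1.34 (C1MDT), -0.73 (C1HV) and -1.81 (C1HDT), of which the call in C1HV was lost without C1H replicate 2 or C1HV replicate 1.

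Epha4, which had risen with induction at day 0, was lower at day 4 in every group. It read 35.97, 38.3, 39.5 and 30.01 CPM in C1T. Without inducers it read 42.3, 37.5, 49.04 and 49.9 CPM in C1MV and 41.3, 35.8, 43.00 and 41.6 in C1HV, and with them 21.9, 30.2, 25.95 and 38.9 in C1MDT and 29.2, 30.1, 27.6 and 26.5 in C1HDT. The change was -0.54 ± 0.13 (C1T), -1.46 ± 0.11 (C1MV), -1.75 ± 0.12 (C1HV), -2.04 ± 0.12 (C1MDT) and -2.26 ± 0.12 (C1HDT), with adjusted p = 0.000342 in C1T and smaller in the others.

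**Figure D3:**
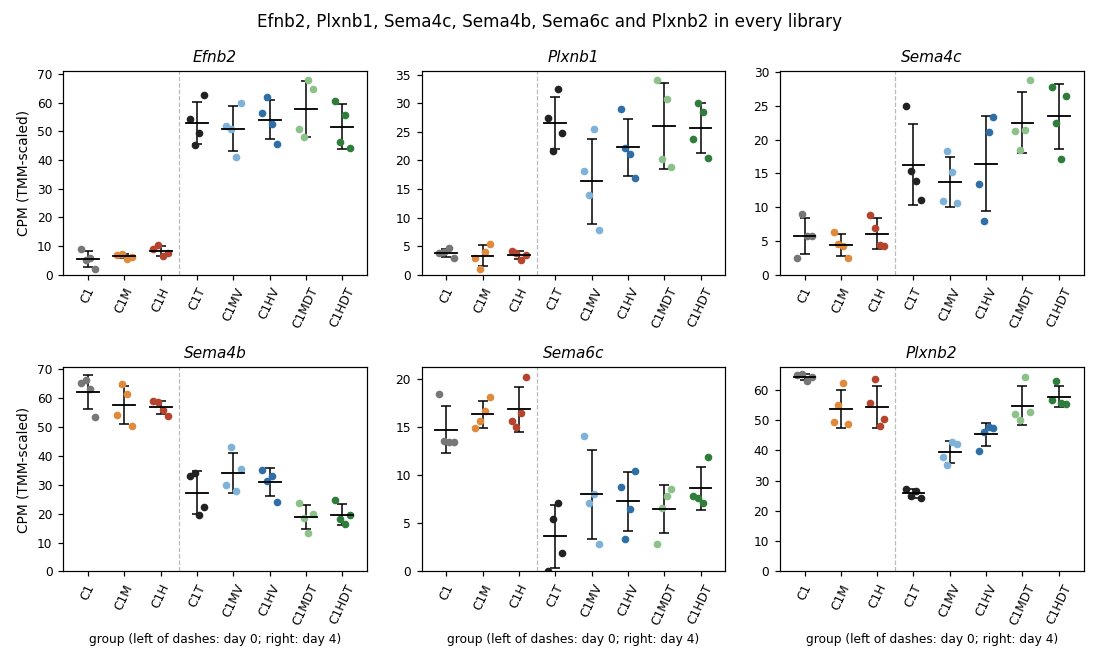
CPM (linear axis, TMM-scaled) of Efnb2, Plxnb1, Sema4c, Sema4b, Sema6c and Plxnb2 in the 8 groups, with 1 point per library, a bar at the mean and whiskers of 1 SD (n = 4). Efnb2 lies at 41.1 to 67.8 CPM in the 20 day 4 libraries and at 1.91 to 10.5 at day 0, and Plxnb2 is lowest in C1T, at 24.1 to 27.3 CPM.

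The comparisons with C1T ask how differentiating cells that had been induced, with the inducers kept or withdrawn, differed from those that never were. C1T had TMP, as C1MDT and C1HDT did, and C1MV and C1HV had none, so TMP differs too in the comparisons of C1MV and C1HV. All 4 use the same C1T libraries and are therefore not independent of each other. Against C1T 11 members were called in C1MV (7 higher, 4 lower, 30.2% of all genes), 13 in C1MDT (8 higher, 5 lower, 33.4%), 12 in C1HV (8 higher, 4 lower, 28%) and 14 in C1HDT (8 higher, 6 lower, 33.5%). Each of these counts, 22.9 to 29.2% of the tested members, lies below the share of all genes. Without C1T replicate 1 the count in C1MV was 7, and without C1MDT replicate 3 the count in C1MDT was 8. The median log2 fold change of the members was 0.21 to 0.29, or 0.12 to 0.18 with the 3 members that had no read in 1 of the groups set at a bound of 3 reads over that group, against -0.01 to 0.01 over all genes. With library size alone as the scale, 59.4% of all calls in C1HV against C1T were higher, against 49.1% here, and 10 members were called higher.

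Sema6a, a transmembrane semaphorin that signals to class A plexins, was high in C1T and low in all other groups. It read 47.96, 34.1, 45.3 and 30.7 CPM in C1T, against 2.94, 2.26, 1.56 and 0.957 in C1. In the 8 induced day 0 libraries it lay at 2.72 to 4.96 CPM (median 3.65) and in the 16 induced day 4 libraries at 0 to 4.42 CPM (median 2.21). The C1T libraries stood apart from all 28 others. The rise in C1T against C1 was 4.31 ± 0.33 (SE, adjusted p = 1.69e-24), and the differences from C1T were -4.17 ± 0.32 (C1MV), -4.26 ± 0.31 (C1MDT), -4.48 ± 0.35 (C1HV) and -4.07 ± 0.31 (C1HDT), with adjusted p from 1.32e-25 to 1.44e-23. In the induced cells the change from day 0 to day 4 was -0.85 ± 0.44 (SE, adjusted p = 0.103) in C1MV and -0.58 ± 0.43 (SE, adjusted p = 0.246) in C1HDT, both with values around the floor.

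Sema5b was also high in C1T at day 4. In C1T it read 69.1, 60.3, 48.6 and 46.97 CPM. The libraries from C1M had 6.85, 4.87, 2.54 and 7.84 CPM as C1MV and 2.31, 1.84, 2.79 and 5.16 as C1MDT, and those from C1H 4.13, 3.41, 3.44 and 5.85 as C1HV and 2.72, 4.29, 2.93 and 4.08 as C1HDT. No induced library overlapped C1T, where the gene had risen by 2.55 ± 0.23 (SE, adjusted p = 1.3e-19) over C1. The differences from C1T were -3.42 ± 0.25 (C1MV), -4.17 ± 0.26 (C1MDT), -3.76 ± 0.27 (C1HV) and -4.002 ± 0.26 (C1HDT), with adjusted p of at most 3.14e-25. At day 0 Sema5b was lower in induced cells, as given above, and Sema6a differed from C1 by 0.99 ± 0.46 (SE, adjusted p = 0.102) in C1M. Gm5963 lies on the other strand within this gene, and the strand setting of the counting is not given in the sources used here.

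Sema3e, a secreted ligand that binds Plxnd1 without a neuropilin, was higher in C1T by smaller steps. It read 17.3, 12.5, 14.3 and 15.01 CPM in C1T and 2.82 to 10.8 CPM (median 3.84) in the induced day 4 libraries, and had risen by 2.18 ± 0.35 (SE, adjusted p = 2.54e-08) from C1. The differences from C1T were -1.57 ± 0.31 (C1MV), -1.92 ± 0.32 (C1MDT), -1.17 ± 0.31 (C1HV) and -1.70 ± 0.31 (C1HDT), with a largest adjusted p of 0.00157. Its receptor Plxnd1 had at most 0.950 ± 1.05 CPM as a group mean and was called nowhere. Epha2 was lower than in C1T in C1HV (4.13, 5.69, 3.01 and 4.55 against 18.7, 14.98, 10.01 and 7.83 CPM, -1.62 ± 0.32 SE, adjusted p = 1.71e-05), in C1MDT (-0.87 ± 0.27 SE, adjusted p = 0.0072) and in C1HDT (-0.92 ± 0.27 SE, adjusted p = 0.00466), with overlapping libraries in C1MDT and C1HDT, where no call was made without C1T replicate 1 or, in C1MDT, C1MDT replicate 3. In C1MV it differed by -0.31 ± 0.26 (SE, adjusted p = 0.417).

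Efna3 went the other way. The lipid-anchored ephrin read 4.32, 5.41, 7.62 and 5.22 CPM in C1T. It stood at 27.4, 30.4, 21.4 and 21.4 CPM in C1MV and 29.95, 26.7, 33.97 and 28.6 in C1HV, and with the inducers at 23.6, 22.5, 31.8 and 25.8 in C1MDT and 21.1, 33.9, 28.5 and 26.9 in C1HDT. Every induced library lay above every C1T library. The differences from C1T were 2.16 ± 0.23, 2.20 ± 0.23, 2.40 ± 0.23 and 2.26 ± 0.23 in C1MV, C1MDT, C1HV and C1HDT, with adjusted p of at most 1.16e-14. From day 0 it fell in C1T, -0.78 ± 0.28 (SE, adjusted p = 0.0155) with overlapping libraries and not without C1 replicate 1 or C1T replicate 1, and rose in the induced groups by 0.81 to 1.04, each called. Gm15998 overlaps Efna3 on the other strand.

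Efnb1, a transmembrane ephrin, read 14.9, 12.1, 14.3 and 16.96 CPM in C1T, within the day 0 range of 11.2 to 18.4 CPM (median 13.96). Without inducers it read 46.7, 40.9, 46.9 and 44.2 CPM in C1MV and 55.8, 48.3, 55.9 and 44.9 in C1HV, and with them 40.9, 30.6, 42.7 and 37.5 in C1MDT and 34.3, 34.8, 46.1 and 34.7 in C1HDT. All 16 induced libraries lay above the C1T and day 0 libraries, and the differences from C1T were 1.64 ± 0.17, 1.40 ± 0.17, 1.84 ± 0.17 and 1.38 ± 0.17 in the order C1MV, C1MDT, C1HV, C1HDT, with adjusted p of at most 7.99e-12. The change in C1T against C1 was -0.04 ± 0.21 (SE, adjusted p = 0.878).

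**Figure D4:**
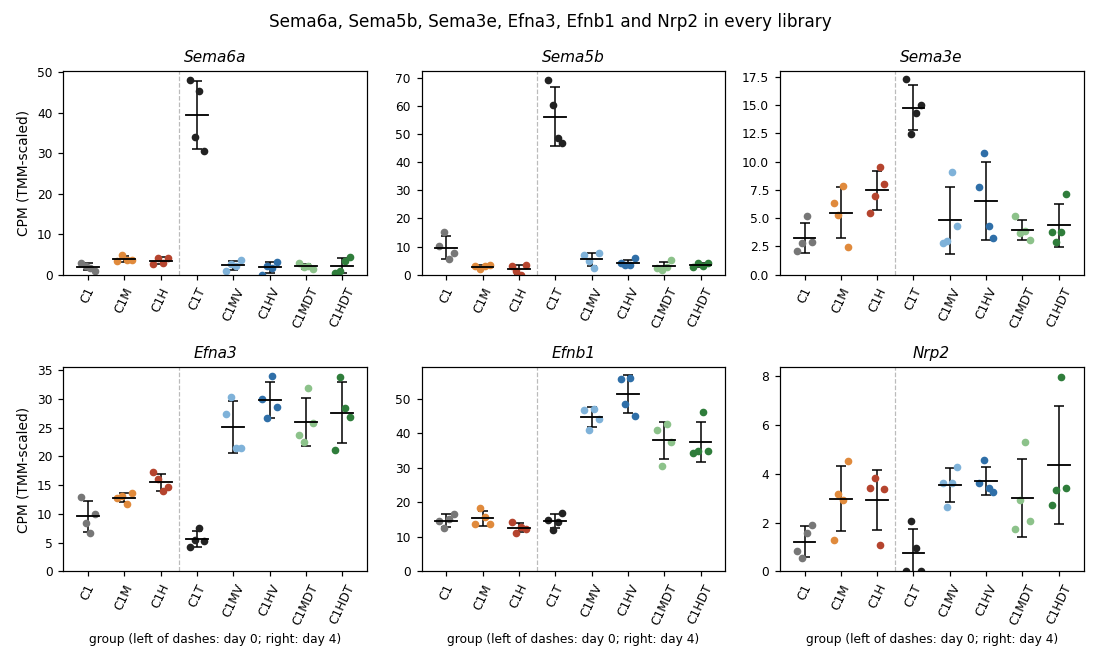
CPM (linear axis, TMM-scaled) of Sema6a, Sema5b, Sema3e, Efna3, Efnb1 and Nrp2 in the 8 groups, with 1 point per library, a bar at the mean and whiskers of 1 SD (n = 4). Sema6a and Sema5b lie at 30.7 to 69.1 CPM in C1T and at 0 to 7.84 in the induced day 4 groups, while Efna3 and Efnb1 are higher in the induced groups than in C1T.

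Among the receptors, Nrp2, a co-receptor of Sema3f, was close to the floor in C1T at 0, 2.08, 0.953 and 0 CPM. In cells from C1M it read 3.63, 2.62, 3.63 and 4.28 CPM (C1MV) and 1.73, 2.95, 5.30 and 2.06 CPM (C1MDT), which differed from C1T by 1.96 ± 0.61 (SE, adjusted p = 0.00812) and 1.85 ± 0.61 (SE, adjusted p = 0.0109). In cells from C1H it read 3.61, 4.55, 3.44 and 3.25 CPM (C1HV) and 2.72, 3.34, 7.96 and 3.40 CPM (C1HDT), which differed by 2.05 ± 0.62 (SE, adjusted p = 0.00651) and 2.26 ± 0.58 (SE, adjusted p = 0.000914). The libraries of C1MDT and C1T overlapped, and without C1T replicate 1 the C1MV value was 1.55 and was not called. The C1MDT call was lost without C1T replicate 1 or C1MDT replicate 3. These are few reads per library, and Gm37121 and Gm29083 overlap the gene.

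Plxnb2, the Sema4c receptor, was measured at higher levels. It read 65.02, 65.1, 62.8 and 64.1 CPM in C1 and 27.3, 24.97, 26.7 and 24.1 in C1T, a change of -1.31 ± 0.14 (SE, adjusted p = 4.39e-16). The other day 4 libraries read 37.9, 35.2, 42.9 and 42.1 CPM in C1MV and 39.8, 46.1, 47.7 and 47.5 in C1HV, and with the inducers 51.9, 50.1, 64.2 and 52.6 in C1MDT and 56.8, 62.97, 55.7 and 55.5 in C1HDT. All of these libraries lay above those of C1T, by 0.60 ± 0.14 (SE, adjusted p = 0.000369), 0.81 ± 0.15 (SE, adjusted p = 1.9e-06), 1.09 ± 0.14 (SE, adjusted p = 7.15e-12) and 1.15 ± 0.14 (SE, adjusted p = 5.65e-13). Plxnb1 was called lower than in C1T in C1MV (-0.63 ± 0.21 SE, adjusted p = 0.0144, with overlap), and in C1MDT, C1HV and C1HDT it was not called.

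Further members were called against C1T. Ephb4, the receptor of Efnb2, was called higher in C1MDT, C1HV and C1HDT (0.82, 0.70 and 0.56, at 12.8 ± 2.10 CPM in C1T). Sema3f was called higher in C1MDT at 11.5, 6.26, 11.2 and 6.53 CPM (1.10 ± 0.33 SE, adjusted p = 0.00566). Sema6c was called higher in C1MV (1.15 ± 0.39 SE, adjusted p = 0.017) and C1HDT (1.19 ± 0.38 SE, adjusted p = 0.0101), in both with overlapping libraries, and Plxna2 in C1MV (0.86 ± 0.33 SE, adjusted p = 0.038) and C1HV (1.11 ± 0.33 SE, adjusted p = 0.00592), also with overlap. Sema4g, Ephb2, Ephb3, Efna2 and Epha10 had calls of higher level in 1 or 2 groups, Sema4b and Epha4 of lower level. Among the calls of this paragraph and that of Plxnb1 in C1MV, those lost without any 1 of 2 or more libraries were Plxnb1, Plxna2 (C1MV), Sema6c, Ephb4 (C1HDT), Sema4g (C1MDT), Ephb2, Epha10, Sema4b and Epha4, and those of Ephb4 in C1HV and Sema4g in C1HDT were lost without 1 library (C1HV replicate 4 and C1HDT replicate 2). DESeq2 did not make the calls of Epha10 and Sema4g in C1MDT. With no filter those of Sema4g in C1MDT, Plxna2 in C1MV and Epha4 in C1HDT were lost, in the fit on the groups compared alone those of Plxna2 and Sema6c in C1MV, and with library size alone that of Epha4 in C1HDT. The marker lists above also separate C1T from the induced groups, the sums of the endoderm, mesoderm and trophectoderm genes being higher and those of the epiblast-like genes lower in the latter. Neural ectoderm sums were higher in C1MDT and C1HDT, and fibroblast sums in C1HV, without overlap. Endothelial sums were lower in C1MDT and C1HDT than in C1T and overlapped it in C1MV and C1HV. Of 12 naive pluripotency genes, 9 were called higher and 2 lower in C1MV and 8 and 2 in C1HV (median log2 difference 0.95 and 0.80), against 2 higher and 6 lower in C1MDT and 3 and 5 in C1HDT (-0.33 and -0.24). Their part in the differences of the guidance genes was not tested.

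Keeping or withdrawing the inducers during the 4 days was compared within each sorted fraction. Dox and TMP were kept or withdrawn together, so their effects and that of the fusion protein cannot be told apart. In C1MDT against C1MV 5 members were called (3 higher, 2 lower), where 12.6% of all genes were, and in C1HDT against C1HV 6 were (1 higher, 5 lower), where 15.9% were. The member shares, 10.4 and 12.5%, do not exceed these backgrounds. Leaving out C1MV replicate 1, C1MV replicate 4, C1MDT replicate 1 or C1MDT replicate 3 gave 3 members in the first, and leaving out C1HV replicate 3 gave 3 in the second. With library size alone as the scale, 45.2% of all calls in C1HDT against C1HV were higher, against 56.8% here, and no member was called higher.

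Sema4b was lower with the inducers in both fractions, at 18.8 ± 4.24 CPM in C1MDT against 34.1 ± 6.81 in C1MV (-0.90 ± 0.16 SE, adjusted p = 8.91e-06), without overlap, and at 19.7 ± 3.65 in C1HDT against 30.9 ± 4.82 in C1HV (-0.65 ± 0.17 SE, adjusted p = 0.00261), with overlap. Epha4 was also lower, at 29.2 ± 7.26 against 44.7 ± 5.88 CPM (-0.58 ± 0.13 SE, adjusted p = 0.00078, with overlap) and 28.4 ± 1.58 against 40.4 ± 3.16 (-0.52 ± 0.14 SE, adjusted p = 0.00461), where induced cells at day 0 had more Epha4 than C1. Marker sums moved with the inducers too. In both fractions the naive pluripotency, endothelial and trophectoderm sums were lower and the epiblast-like and endoderm sums higher with them, without overlap, and in C1MDT the neural ectoderm and mesoderm sums were higher as well. Of 12 naive pluripotency genes, 0 were called higher and 9 lower in C1MDT and 1 and 10 in C1HDT, while 5 of 8 epiblast-like and 3 of 9 endoderm genes were called higher and 0 lower in each fraction, and of 3 endothelial genes 1 was called lower in each. Their part in the differences of the members was not tested. Plxnb2 was higher with the inducers by 0.49 ± 0.12 (SE, adjusted p = 0.00236) in C1MDT and 0.35 ± 0.12 (SE, adjusted p = 0.0411) in C1HDT, and the second call was lost with 5 of the alternative settings and without any 1 of the 8 libraries. Plxnb1 and Sema4c were called higher in C1MDT by 0.58 ± 0.20 (SE, adjusted p = 0.0441) and 0.67 ± 0.23 (SE, adjusted p = 0.0386), both lost with DESeq2. The Plxnb1 call was also lost in the fit on these groups alone and without any 1 of 5 libraries, and the Sema4c call with the replicate block and without any 1 of 6 libraries. Plxna2 was lower in C1HDT, at 3.06, 3.34, 3.77 and 6.13 CPM against 6.197, 9.67, 11.2 and 7.80 (-1.08 ± 0.32 SE, adjusted p = 0.00823), which was -0.93 and no call without C1HV replicate 3. Efnb1 was lower in C1HDT than in C1HV with overlapping libraries (-0.46 ± 0.14 SE, adjusted p = 0.012), and so was Ephb3 (-0.29 ± 0.10 SE, adjusted p = 0.0413), a call lost without any 1 of 5 libraries.

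The difference between induced and control cells was itself compared between day 4 and day 0, in a term that subtracts the day 0 difference from that of day 4. For C1MV and C1M 11 members were called (6 higher, 5 lower), where 22.5% of all genes were, and for C1HDT and C1H 13 (7 higher, 6 lower), where 25.2% were. Both terms use the C1 and C1T libraries. Sema6a had the most negative value in both, -5.16 ± 0.57 (SE, adjusted p = 1.09e-13) and -4.89 ± 0.57 (SE, adjusted p = 1.3e-12), followed by Sema3e at -2.37 and -2.90. The value of Epha4 was -0.92 and -1.73. Efna3 and Efnb1 were positive, at 1.77 and 1.58 in the first and 1.59 and 1.61 in the second, and so was Plxnb2 at 0.85 and 1.39. For Efnb2, Plxnb1 and Sema4c neither term was called, with values of -0.63 ± 0.31, 0.06 ± 0.44 and 0.36 ± 0.42 in the second.

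Several members were seen in so few reads that a fitted fold depends on the prior count, and reads are given for them here. Sema6d had no read in any C1T library and between 0 and 8 in the others, Sema3d had 0 reads in C1T and at most 1 in each induced day 4 library against 0 to 7 at day 0, and Epha5 had at most 4 in any library. Sema3d was called lower in C1T, C1MV and C1MDT, Sema6d lower in C1T, and Epha5 lower in C1HV and C1HDT, each against its day 0 group, and Sema6d was called higher in C1MV than in C1T. Of the 9 reads of Sema6d in C1, 8 lay in replicate 1, and its call in C1T was lost without that library, as was that of Sema4f. The Sema6d call in C1MV was lost without any 1 of 7 libraries, and those of Epha5 without any 1 of 3. DESeq2 made neither the Epha5 calls nor that of Sema6d in C1MV, the Epha5 calls were also lost with no filter, and the replicate block ended those of Epha5 in C1HV and Sema6d in C1MV. The Sema4f call in C1T was lost with ComBat-Seq counts. Sema4f went from 1 to 13 reads at day 0 to 0 to 5 at day 4 and was called lower in C1T, C1HV and C1HDT. Epha8, a class A receptor, was near the floor at day 0 (0.283 ± 0.566 CPM in C1) and was called higher in C1T, C1MV, C1HV and C1HDT, at 1.46 ± 1.32 CPM in C1T. Each of its calls was lost without any 1 of 2 to 5 libraries, the one in C1T also in 5 alternative settings, the one in C1HV with DESeq2 and with the replicate block, and the one in C1MV with DESeq2. Other annotated genes overlap 30 of the 53 members, among them Efna4, Epha4, Epha7, Ephb4, Nrp1, Plxna1, Plxna2, Plxnb1, Plxnb2, Sema3e, Sema4b, Sema4c and Sema4d, and their counts carry the same doubt as those of Efnb2 and Sema5b. Of the 53 members, 8 had at most 5 reads in every library.

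Other guidance genes, among them the netrin and Slit systems and the proteins that carry plexin and Eph signals inside the cell, were followed as a list of 72, of which 64 were tested. In C1T against C1 19 of them were called higher and 24 lower, which is 67.2% beside the 49.2% of all genes. In C1HDT against C1T 13 were called higher and 8 lower, and their 32.8% is close to the 33.5% of all genes. Crmp1, which relays semaphorin signals to the cytoskeleton, rose from 0.419, 0.566, 1.56 and 0.957 CPM in C1 to 28.3, 25.8, 30.97 and 18.3 in C1T (4.85 ± 0.37 SE, adjusted p = 7.24e-25). Slit2, a Robo ligand, fell from 8.39, 9.62, 5.19 and 10.1 CPM to 0.959, 2.08, 0.476 and 0 (-3.02 ± 0.48 SE, adjusted p = 2.34e-08). Rras, a small GTPase that plexins switch off, read 22.5, 16.6, 22.4 and 11.7 CPM in C1T and 67.3, 77.3, 48.99 and 69.1 in C1HDT (1.81 ± 0.15 SE, adjusted p = 5.96e-21). Ptpn13, a phosphatase that binds ephrin B tails, rose from 17.8 ± 2.90 CPM to 39.7 ± 2.70 in the same comparison (1.17 ± 0.17 SE, adjusted p = 3.66e-09), while the ligand Ntn1 and the receptor Robo4 were lower in C1HDT by -1.76 ± 0.48 (SE, adjusted p = 0.00165) and -1.22 ± 0.50 (SE, adjusted p = 0.0482), at 1.90 ± 0.420 and 2.04 ± 0.344 CPM there.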

How the data were processed

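RNA of C1 cells was sequenced from 3′ ends (QuantSeq, single end) in 32 libraries. The deposited values are whole-number read counts per Ensembl gene, not normalized, which the authors made with bbduk (trimming), STAR (alignment, mm10) and htseq-count (unique reads). The strand setting is not given in the sources used here. Doses and times come from the study's methods. The labels describe growth in serum with LIF and the methods 2i/L, and the latter is used.

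Groups and replicate numbers were read from the labels. Rows that name no gene were left out of library sizes, and the report gives the share outside genes. Symbols and positions came from GENCODE vM21 (GRCm38), and promoters from RefSeq. The 15280 genes that reached 1 CPM in 4 libraries or more entered 1 model of the 8 groups with edgeR 4.0.16 (R 4.3.3, TMM, quasi-likelihood test), with adjustment over all of them. The members, lists and tests were chosen with earlier results of these data known. Library values were to be given for called members without overlap between groups and with a mean log2 CPM (prior count 2) of at least 1, for the 3 largest rises and falls of each comparison. Other guidance genes were named by the same criteria, 2 per direction, in C1T against C1 and C1HDT against C1T. Some of these are not reported here. Libraries that share a replicate number showed no shared deviation (mean r over genes -0.00163 in 112 pairs, 0.000545 in 336 pairs with different numbers), so the groups were compared without pairing. Alternatives used RLE factors, library size only, DESeq2 1.42.0, the likelihood ratio test, no filter, a filter of 1 CPM in every library, a block for replicate number, ComBat-Seq counts (sva 3.50.0), a fit on the compared groups alone, and fits that omit each library in turn. The steps were tested on simulated data. The authors' filter on multi-mapped reads could not be repeated.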

Additional observations from a re-analysis of the deposited data

Results flagged for a closer look

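Over the 22 members with library values, 175 groups of 4 libraries were examined for a library far from the other 3 on the log scale, and 4 had one, where chance alone would mark about 1 in 20 groups. Efnb1 had its highest C1HDT value, 46.1 CPM, in replicate 3. Nrp2 had its lowest C1H value, 1.10 CPM, in replicate 3, Sema3f its lowest C1HDT value, 5.25 CPM, in replicate 2, and Sema6c its highest C1 value, 18.5 CPM, in replicate 1.

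The difference of induced from control cells changed between day 0 and day 4 for the following members, by the test of that change (edgeR, adjusted p under 0.05). Each value is the log2 difference from C1T at day 4 minus that from C1 at day 0. For C1MV and C1M the negative values were -5.16 (Sema6a), -2.37 (Sema3e), -1.72 (Sema5b), -1.27 (Sema4d) and -0.92 (Epha4), and the positive ones 0.85 (Plxnb2), 0.85 (Sema4g), 1.35 (Epha2), 1.58 (Efnb1) and 1.77 (Efna3). Sema6d had 5.71, which depends on the prior count because C1T held no read of it. For C1HDT and C1H the negative values were -4.89 (Sema6a), -2.90 (Sema3e), -2.02 (Epha7), -1.73 (Epha4), -1.72 (Sema5b) and -1.57 (Sema4d). The positive ones were 1.16 (Sema4g), 1.28 (Efna2), 1.39 (Plxnb2), 1.59 (Efna3), 1.61 (Efnb1), 1.92 (Ephb6) and 2.19 (Sema3b). Dox was given to the induced cells only, and its effect and that of the fusion protein cannot be told apart. C1T had TMP at day 4 and C1MV did not, so the values for C1MV also carry a difference in TMP.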

How the results depend on the processing

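No named fold change of 71 changed its direction under any alternative. Between C1H and C1M 1 member (Ephb3) was called by DESeq2, with ComBat-Seq counts and in a fit on these groups alone, against 0 here. These alternatives called 334, 417 and 570 of all genes, against 271 here. The filter of 1 CPM in every library tested 22 members, because fewer passed it, and called 18 in C1T against C1, 6 in C1MV against C1T and 8 in the day 4 minus day 0 term of C1HDT. Of the 10233 genes that passed this filter, 5998, 4088 and 3407 were called in these comparisons. DESeq2 called 3 members in C1MDT against C1MV, where it called 1928 of all 15280 genes. Leaving out 1 library gave 0 to 1 members in C1H against C1M, 7 to 11 in C1MV against C1T, 8 to 14 in C1MDT against C1T, 3 to 5 in C1MDT against C1MV and 3 to 5 in C1HDT against C1HV. Over all genes these fits called 117 to 229, 4070 to 4527, 4382 to 4821, 1408 to 1849 and 1744 to 2382, in the same order. The causes were not tested. Over the 71 named values, the call was kept in 548 of 568 fits without 1 library, in 68 by DESeq2, and in 70 or 71 by each other alternative, except that only 44 were tested by the strictest filter, which kept 44. Of all 188 calls of a member in the comparisons of 2 groups, 134 were kept in every alternative that gave a p, 53 were lost without at least 1 library and 21 in at least 1 other alternative.

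With the replicate block 29 members were called in C1T against C1, 6 in C1M and 12 in C1H against C1, 10, 13, 12 and 14 in C1MV, C1MDT, C1HV and C1HDT against C1T, 4 in C1MDT against C1MV and 6 in C1HDT against C1HV. Of all 15280 genes the block called, in the same order, 7451, 3944, 3886, 4580, 5045, 4209, 5077, 1861 and 2400. Libraries with the same replicate number showed no shared deviation, which does not show that their cultures were handled apart. The block ended the call of 1 named value, Sema4c in C1MDT against C1MV (0.67). Over all genes, C1H against C1M gave 271 calls, 417 with ComBat-Seq counts, 570 in a fit on these groups alone and 117 to 229 without 1 library. C1HV against C1MV gave 1, or 3 with no filter, 0 on these groups alone and 0 to 7 without 1 library, and C1HDT against C1MDT gave 0, or 1 by the likelihood ratio test and with ComBat-Seq counts. Depth limits the members under about 3 CPM, where a library holds few reads.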
